A study of Mus musculus with 17 samples.

Results

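The genes described here encode the proteins that repackage DNA in spermatids, together with a mitochondrial protein of the same cells. They are the protamine genes *Prm1*, *Prm2* and *Prm3*, the transition protein genes *Tnp1* and *Tnp2*, the spermatid linker histone genes *Hils1* and *H1fnt*, and *Smcp*. They were taken from the deposited table by gene symbol, and all 8 symbols were found among its 23282 genes. All 8 also passed the filter of a mean of 10 reads in every comparison, but in the genotype comparisons they passed it through the WT libraries, so counts of these genes called lower are a description and not support for their direction.

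The RNA came from testicular cells of mice labelled C57BL/6 (C57BL/6J in the study's methods) that were stained with Hoechst and propidium iodide and collected by FACS at 3 stages, namely spermatogonia (SPG), the pre-leptotene stage (PreL) at the entry of meiosis, and the leptotene/zygotene stage (LZ) of early meiosis. The wildtype (WT) mice were compared with *Nat10*-SKO mice, labelled Stra8-cre_Nat10_KO. In these a Cre expressed from *Stra8* removes exons 4 and 5 of floxed *Nat10* in germ cells. The study's methods write their genotype as *Nat10* fl/- with *Stra8*-Cre, a notation of 1 floxed and 1 null allele. Whether the somatic cells of these mice carry the null allele was not stated. NAT10 acetylates cytidines in RNA. The age of the mice behind the libraries was not given in the labels. Each of the 6 groups of stage and genotype had 3 libraries except WT LZ, which had 2, so there were 17 in all, made from polyadenylated RNA with Smart-seq2. No group is labelled as spermatids. Replicates carry numbers from 1 to 4, and nothing in the labels says that they came from separate animals, so p-values measure only the spread between these libraries.

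During the last part of sperm formation the histones of the haploid nucleus are removed and replaced. Transition proteins take their place first and protamines, small arginine-rich proteins, follow and compact the DNA of the sperm head. The genes are transcribed in round spermatids after the meiotic divisions, and much of the mRNA is stored by RNA-binding proteins and translated later in elongating spermatids. The sorted stages all precede the meiotic divisions, so that in these sorts the 8 genes are markers of a later cell type than the labelled ones.

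*Prm1*, *Prm2*, *Prm3* and *Tnp2* lie next to each other on the minus strand within 17904 bases (GRCm38, chr16:10787936-10805839). *Tnp1* lies at chr1:73015074-73015909, *Hils1* at chr11:94967593-94968456, *H1fnt* at chr15:98255986-98257293 and *Smcp* at chr3:92583867-92588997. The exons of *Tnp1* overlap those of the antisense gene *1700027A15Rik*, which has counts of its own. The counting was not stated to use strand, so how reads of the shared exons were assigned is not known. The activator CREM binds cAMP response elements in spermatids, whose palindromic form is TGACGTCA. The sequences below are those of the 5 protamine and transition protein genes, shown for where these motifs lie in them. Each is the strand of the gene, 5′ to 3′, over the 120 bases before the RefSeq start (GRCm38.p6), with matches to TGANNTCA or to TATAA in capitals.

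*Prm1* (chr16:10796824-10796943, minus strand): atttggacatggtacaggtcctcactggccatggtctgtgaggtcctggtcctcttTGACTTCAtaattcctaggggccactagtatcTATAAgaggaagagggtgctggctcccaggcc
*Prm2* (chr16:10792106-10792225, minus strand): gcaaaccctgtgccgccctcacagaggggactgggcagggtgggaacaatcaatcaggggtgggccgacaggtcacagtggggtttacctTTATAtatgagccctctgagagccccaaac
*Prm3* (chr16:10790915-10791034, minus strand): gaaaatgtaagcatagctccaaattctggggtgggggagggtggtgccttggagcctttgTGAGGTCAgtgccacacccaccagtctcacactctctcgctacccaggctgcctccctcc
*Tnp1* (chr1:73015900-73016019, minus strand): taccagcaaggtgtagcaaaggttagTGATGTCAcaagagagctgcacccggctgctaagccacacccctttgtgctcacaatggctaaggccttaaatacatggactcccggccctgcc
*Tnp2* (chr16:10788656-10788775, minus strand): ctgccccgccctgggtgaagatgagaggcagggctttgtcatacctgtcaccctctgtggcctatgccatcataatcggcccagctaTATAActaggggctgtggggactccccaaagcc

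RefSeq promoters were matched for 8 of 8 genes, and the 250 bases before each start were searched on both strands. TGANNTCA, which includes the palindrome TGACGTCA, occurred in 3 of 8 genes, from 64 to 57 bases before the start of *Prm1*, from 60 to 53 bases before *Prm3* and from 94 to 87 bases before *Tnp1*. It occurred in 11.9% of 32851 promoters. TGACGTCA itself occurred in 0 of 8 genes and in 1.55% of all promoters. Its first letters TGACG occurred in 1 of 8 genes, *H1fnt*, and in 17.8% of all. TATAA occurred in 4 of 8 genes and in 22.8% of all promoters. It lay 32 to 28 bases before the start of *Prm1*, 33 to 29 bases before *Tnp2* and, on the opposite strand, 30 to 26 bases before *Prm2*. In *Smcp* it lay 250 to 246 bases before the start. A match is a run of letters and was not tested as a binding site.

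The recovered reads ranged from 5812380 to 13820953 per library, with the 3 SKO LZ libraries the shallowest, so that a floor of 3 reads stood for 0.217 to 0.516 RPM (reads per 1000000 recovered reads). The counts of *Nat10*, the targeted gene, cover the whole gene and not only the deleted exons. *Nat10* ranged from 30.2 to 37.2 RPM in WT SPG and from 14.7 to 22.6 RPM in SKO SPG, from 23.1 to 36.4 RPM and from 10.1 to 15.0 RPM in PreL, and from 28.1 to 28.6 RPM and from 6.83 to 8.81 RPM in LZ. Transcripts of early meiosis were present in every group, with summed levels of 12 genes from 3681 to 10362 RPM. The 13 spermatogonial transcripts summed to between 496 and 913 RPM in every group.

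In WT the 8 genes together held 4276, 1244 and 2622 reads in the 3 SPG libraries, 9693, 11016 and 6572 reads in PreL and 15244 and 8620 reads in LZ. In SKO they held 7, 1 and 15 reads in SPG, 54, 52 and 39 reads in PreL and 18, 26 and 23 reads in LZ. The highest SKO library thus lay below the lowest WT library of every stage. As summed levels this was 218 ± 110 RPM in WT SPG against 0.669 ± 0.579 RPM in SKO SPG, 853 ± 219 against 4.30 ± 0.727 RPM in PreL (SD, n = 3 each), and 867 ± 334 RPM (n = 2) against 3.28 ± 0.164 RPM (n = 3) in LZ. Fewer cells of a type and less RNA per cell cannot be told apart in such sorted bulk samples. Separately, the paper reported that its FACS profiles of SKO testes showed no haploid round spermatids. Whether those mice matched the age of the mice behind these libraries is not known. The paper also typed its sorted PreL and LZ cells by immunofluorescence. Most were of the labelled stage, some were classed as other cells, and no such count was given for SPG.

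**Figure D1:**
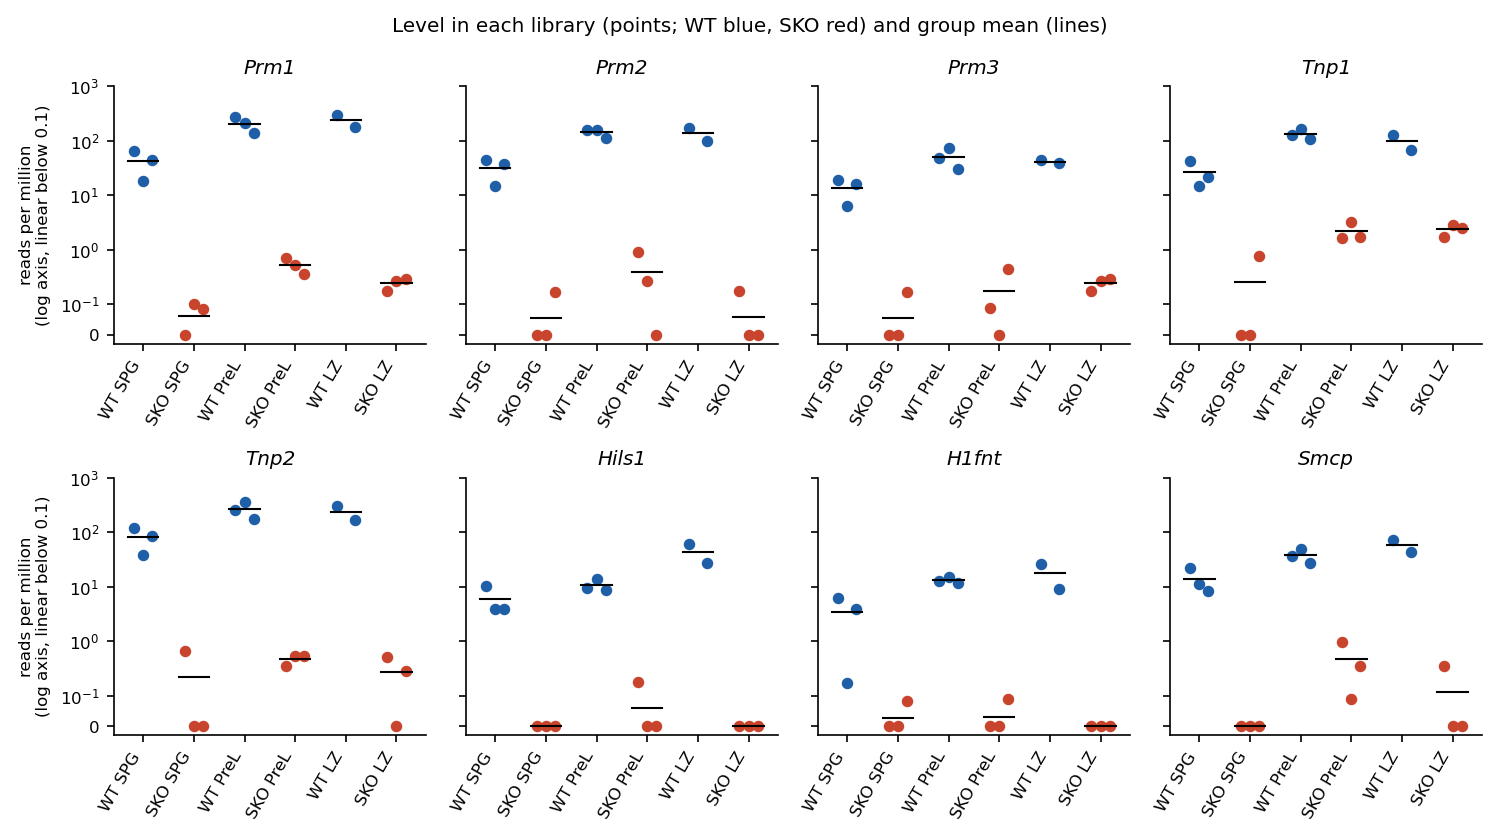
Level of each of the 8 genes in RPM (symmetric log axis, linear below 0.1) in the 17 libraries, by stage and genotype. Points are libraries, WT in blue and SKO in red, and black lines are group means. In every panel and stage the WT points lie above the SKO points, with *H1fnt* in SPG the closest (2 reads in 1 WT library against at most 1 read in SKO).

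*Prm1* encodes the protamine found in all mammalian sperm. It had 852, 211 and 522 reads in WT SPG, 2840, 2242 and 1490 reads in WT PreL, and 4121 and 2433 reads in WT LZ. In SKO it had 0, 1 and 1 reads in SPG, 8, 6 and 4 reads in PreL and 1, 2 and 2 reads in LZ. WT and SKO did not overlap in any stage. The WT libraries held 705-fold the RPM of the SKO libraries in SPG when reads were pooled (95% interval 195 to 5826, exact and of counting error only), 385-fold in PreL (243 to 650) and 970-fold in LZ (416 to 2990).

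*Prm2*, the second protamine of the mouse, is made as a precursor that is processed on the DNA. Its reads numbered 583, 173 and 440 in WT SPG, 1686, 1664 and 1213 in WT PreL, and 2389 and 1361 in WT LZ. In SKO there were 0, 0 and 2 reads in SPG, 10, 3 and 0 in PreL, and 1, 0 and 0 in LZ. Some SKO libraries of every stage therefore held no *Prm2* read, while the lowest WT library held 173. *Prm3* lies between *Prm2* and *Tnp2* in the cluster and encodes an acidic protein rather than a basic one. Its reads were 243, 73 and 196 in WT SPG, 504, 761 and 326 in WT PreL, and 610 and 521 in WT LZ. Its SKO libraries held 0, 0 and 2 reads in SPG, 1, 0 and 5 in PreL, and 1, 2 and 2 in LZ. Per kilobase of transcript *Prm3* was lower than *Prm1* and *Prm2* in every WT library, and its genotypes did not overlap either.

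*Tnp2* encodes the larger transition protein. It had 1549, 436 and 1009 reads in WT SPG, the highest level per kilobase of the 8 genes in all 3 libraries, and 2681, 3785 and 1862 reads in WT PreL and 4178 and 2316 reads in WT LZ. In SKO SPG it had 7, 0 and 0 reads, so all 7 reads came from 1 library. SKO PreL held 4, 6 and 6 reads and SKO LZ 3, 0 and 2.

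*Tnp1* encodes the more abundant of the transition proteins in many species. Its reads in WT were 550, 172 and 261 in SPG, 1358, 1749 and 1168 in PreL, and 1751 and 907 in LZ. In SKO it had 0, 0 and 9 reads in SPG, 18, 36 and 19 in PreL, and 10, 22 and 17 in LZ. *Tnp1* was the only one of the 8 with at least 10 reads in every SKO PreL and every SKO LZ library. The pooled WT level was 61.8-fold the SKO level in PreL (95% exact interval 49.0 to 78.9) and 40.2-fold in LZ (30.3 to 54.4), the smallest pooled ratios among the genes that had SKO reads in those stages. The antisense gene that shares exons with *Tnp1* had 633 to 1117 reads in WT PreL and 0 to 5 reads in SKO PreL.

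*Hils1* encodes a linker histone-like protein of elongating spermatids. It had 135, 45 and 46 reads in WT SPG, 101, 144 and 94 in WT PreL, and 837 and 370 in WT LZ. Its SKO libraries held 0 reads in SPG and LZ and 2, 0 and 0 in PreL. Against a floor of 3 reads per SKO library, the WT mean of *Hils1* was at least 21.5-fold the SKO level in SPG and 71.1-fold in LZ. From the lowest WT library these bounds were 14.0-fold and 53.2-fold. *H1fnt*, also known as H1T2, encodes the other linker histone of spermatids. Its reads were 81, 2 and 46 in WT SPG, 133, 160 and 125 in WT PreL, and 361 and 124 in WT LZ, against 0, 0 and 1 in SKO SPG, 0, 0 and 1 in SKO PreL and 0 in all SKO LZ libraries. The WT SPG library with 2 reads lay nearer to the SKO libraries than to the other WT libraries. In LZ, where all SKO libraries were at 0, the WT mean of *H1fnt* was at least 28.1-fold the SKO level against the same floor. From the lowest WT library this bound was 17.8-fold.

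*Smcp* encodes a cysteine-rich protein that sits on the sperm mitochondria and not in chromatin. It had 283, 132 and 102 reads in WT SPG, 390, 511 and 294 in WT PreL, and 997 and 588 in WT LZ. In SKO it had 0 reads in all SPG libraries, 11, 1 and 4 reads in PreL and 2, 0 and 0 in LZ. It separated the genotypes as the chromatin genes did. In SPG its WT mean was at least 49.8-fold the SKO level against the floor of 3 reads per library. From the lowest WT library this bound was 31.0-fold.

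The question of the genotype comparison is how the RNA of each sorted stage differs between WT and *Nat10*-SKO mice. Values were rescaled within each comparison and tested as log2(value + 10) with limma, and a gene was called where the adjusted p was under 0.05 and the log2 fold change exceeded 1 in size. *Nat10* itself had a log2 fold change of -0.87 in SPG (adjusted p = 0.0326 by limma) and was not called there, as it missed the fold threshold. Near 0 reads the fitted change is set by the 10 that is added and understates the ratio, so the fitted values below are on that scale only.

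In SPG, 7 of the 8 genes were called lower and 0 higher in SKO, where 2.06% of 12846 genes tested were called lower and 3.95% higher. *Tnp2* (-6.27, SE 0.46), *Prm1* (-5.52, SE 0.49), *Prm2* (-5.18, SE 0.49) and *Tnp1* (-4.68, SE 0.51) had the 4 lowest log2 fold changes of all genes tested, with adjusted p from 1.04e-05 to 0.00016. *Smcp*, *Prm3* and *Hils1* stood at ranks 6, 11 and 35 from the lowest. *H1fnt* was not called, with a log2 fold change of -1.95 (SE 0.71, adjusted p = 0.0959 by limma). It passed the threshold without WT SPG replicate 2, the library with 2 reads (-2.77, adjusted p = 0.0175), and the adjusted p over all its alternatives ranged from 0.00243 to 0.303. The median over the 8 genes was -4.41, or -4.93 with *Hils1* and *Smcp* at their bounds, against 0.0014 over all genes tested. On the ERCC-calibrated values as deposited the median of all genes was -0.25, and 578 genes were called lower and 399 higher, against 265 and 508 after rescaling.

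In PreL, all 8 genes were called lower and 0 higher, where 5.83% of 13132 genes tested were called lower and 5.32% higher. *Tnp2*, *Prm1* and *Prm2* again had the 3 lowest log2 fold changes. *Prm3* (-6.17, SE 0.41), *Tnp1* (-5.74, SE 0.26), *Smcp* (-5.36, SE 0.41), *H1fnt* (-4.66, SE 0.38) and *Hils1* (-4.30, SE 0.40) ranked between 16 and 108 from the lowest, with adjusted p from 5.34e-06 to 0.000215 by limma. The median over the 8 genes was -5.95, against 0.037 over all genes tested. On the values as deposited the median of all genes was 0.73, and 585 genes were called lower and 3459 higher, against 765 and 699 after rescaling, with all 8 genes still called lower.

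In LZ, all 8 genes were called lower and 0 higher, in a comparison that called 25.8% of 13724 genes lower and 13.4% higher. The log2 fold change was -8.89 for *Prm2* (SE 0.49), -8.84 for *Tnp2* (SE 0.63), -8.79 for *Prm1* (SE 0.36), -7.57 for *Hils1* (SE 0.44) and -7.46 for *Smcp* (SE 0.62). *Prm3* (-6.30, SE 0.40), *H1fnt* (-6.19, SE 0.48) and *Tnp1* (-4.84, SE 0.32) changed less on this scale. The adjusted p ranged from 5.17e-05 to 8.54e-05 by limma. The ranks from the lowest ran from 33 for *Prm2* to 692 for *Tnp1*, so that in LZ other genes had lower fitted values than these 8 on this scale. The median over the 8 genes was -7.51, or -6.88 with *Hils1* and *H1fnt* at their bounds, against -0.13 over all genes tested.

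**Figure D2:**
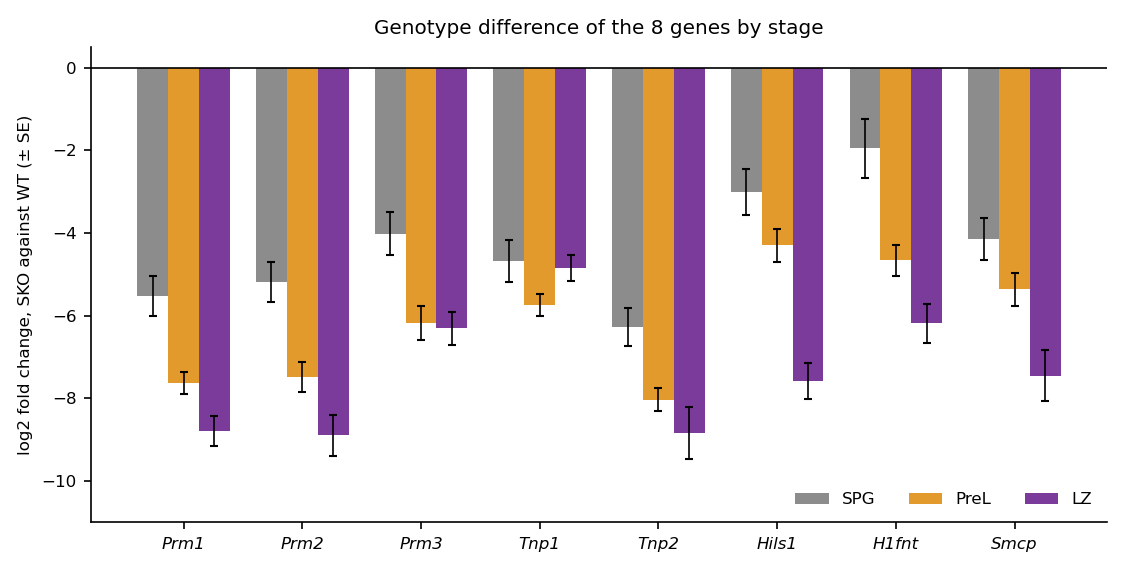
Fitted log2 fold change of SKO against WT for the 8 genes in SPG (grey), PreL (orange) and LZ (purple), with standard errors as bars, on the log2(value + 10) scale. All 24 bars are below 0, from -1.95 for *H1fnt* in SPG to -8.89 for *Prm2* in LZ.

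The genotype effects of the stages were compared by an interaction term over all 17 libraries, called at an adjusted p under 0.05. Between SPG and PreL, 0 of the 8 genes were called in either direction by limma, where 0.111% of 13530 genes were called more negative in PreL and 0.251% more positive, and 4 of the 8 had an unadjusted p under 0.05. The fitted differences ran from -2.42 for *H1fnt* (adjusted p = 0.209) to -0.52 for *Tnp1*. Their direction was not kept under edgeR or DESeq2 for *Prm1*, *Prm2*, *Tnp1*, *Hils1* and *Smcp*, and 4 genes were called without rescaling of the ERCC-calibrated values, when 147 of all genes were called more negative and 5938 more positive, against 15 and 34 after rescaling. Between PreL and LZ, 1 of the 8 was called more negative in LZ and 0 more positive, where 23.1% of all genes were called more negative and 15.1% more positive (3122 and 2040 genes, or 6575 and 749 without rescaling). The gene was *Hils1*, at -2.05 (SE 0.66, adjusted p = 0.0189 by limma). With 0 to 2 *Hils1* reads in the SKO libraries of both stages its fitted SKO level is close to the added 10, so this value restates the difference between WT LZ and WT PreL. It was not called without WT LZ replicate 2 (-1.66, adjusted p = 0.0959), nor by edgeR (adjusted p = 0.175) or DESeq2 (adjusted p = 0.243), and its adjusted p over all alternatives ranged from 0.000123 to 0.243. *Tnp1* had the difference of opposite sign that was largest among the 8, 1.05 (adjusted p = 0.182).

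The WT libraries show how the 8 genes varied between the sorts without the deletion. From SPG to PreL, 6 of the 8 genes were called higher and 0 lower, where 2.54% of 12657 genes were called higher and 1.21% lower. *Tnp1* went from 26.2 ± 14.2 to 134 ± 28.9 RPM and *Prm1* from 42.3 ± 23.6 to 205 ± 63.4 RPM (SD, n = 3 each). Their log2 fold changes were 2.46 (SE 0.29, adjusted p = 0.00288 by limma) and 2.42 (SE 0.35, adjusted p = 0.00527). *Prm2* (2.28), *Prm3* (1.88), *Tnp2* (1.81) and *Smcp* (1.48) were called too, with adjusted p from 0.00423 to 0.0231. *H1fnt* had a log2 fold change of 2.24 (SE 0.63) and missed the threshold at adjusted p = 0.0552, although its WT PreL libraries all lay above its WT SPG libraries. *Hils1* had 6.02 ± 3.75 RPM in SPG and 10.6 ± 2.63 RPM in PreL, which overlapped (0.89, SE 0.40, adjusted p = 0.185). The median was 2.06 over the 8 genes and 0.0055 over all genes tested. On the values as deposited 332 genes were called higher and 95 lower, against 322 and 153 after rescaling. Only 3 of the 8 were called without WT SPG replicate 3 or without WT PreL replicate 2, and also without the filter on low values, where the calls of *Prm3*, *Tnp2* and *Smcp* were lost.

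From PreL to LZ in WT, 1 of the 8 genes was called higher and 0 lower, where 18.8% of 13759 genes were called higher and 7.8% lower. *Hils1* went from 9.43, 13.6 and 8.77 RPM in the WT PreL libraries to 60.6 and 27.1 RPM in the WT LZ libraries, with no overlap. Its log2 fold change was 1.76 (SE 0.37, adjusted p = 0.00764 by limma). Without WT LZ replicate 2, the higher of the pair, it was 1.35 and missed the threshold (adjusted p = 0.0643). The other 7 genes overlapped between the stages, from -0.68 for *Tnp1* (SE 0.25, adjusted p = 0.0641) to 0.45 for *Smcp* (SE 0.29, adjusted p = 0.245). The median was -0.10 over the 8 genes and 0.13 over all genes tested. These directions hold for values rescaled within the comparison. On the ERCC-calibrated values as deposited, the median of all genes was higher in LZ by 1.86, the median of the 8 genes was higher by 1.72, all 8 were called higher, and 4 of the 8 lay above the median of all genes. The split of all genes was then 10992 higher and 15 lower, against 2585 and 1073 after rescaling.

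**Figure D3:**
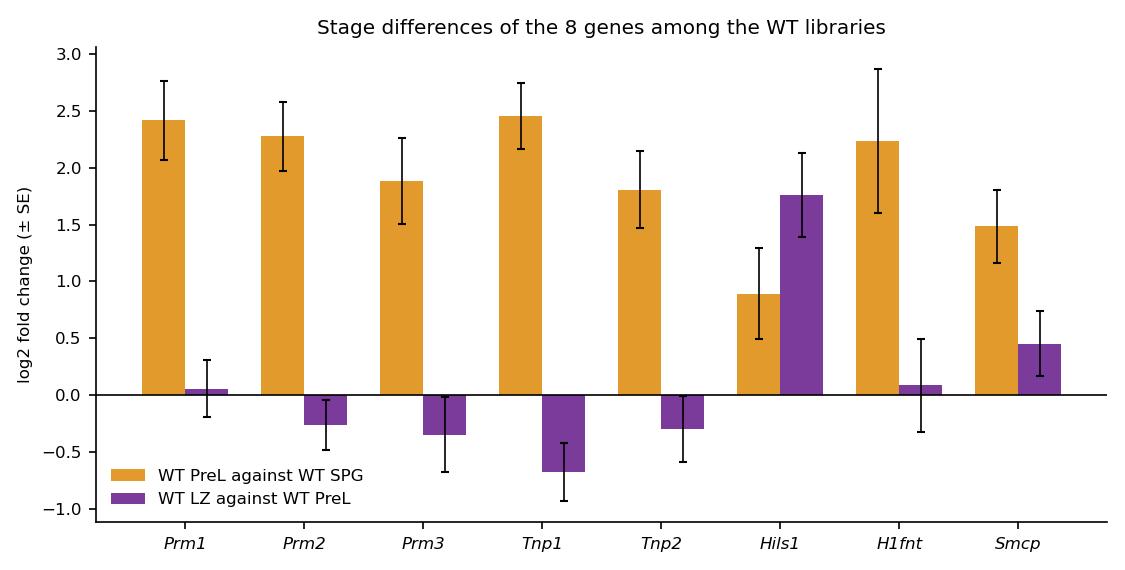
Fitted log2 fold change with standard error for the 8 genes among the WT libraries, PreL against SPG (orange) and LZ against PreL (purple), on the log2(value + 10) scale after rescaling. The PreL bars lie between 0.89 and 2.46, while the LZ bars lie between -0.68 and 0.45 except that of *Hils1* at 1.76.

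Levels of different genes were compared per kilobase of the longest transcript. In WT PreL the order ran from *Tnp2* (470 ± 167 RPM per kb) and *Prm1* (438 ± 135) through *Tnp1* (306 ± 66.1), *Prm2* (212 ± 37.9) and *Prm3* (121 ± 51.0) to *Smcp* (43.4 ± 12.2), *Hils1* (12.3 ± 3.04) and *H1fnt* (9.99 ± 1.40; SD, n = 3). Neighbours in this order overlapped between libraries except *Tnp1* and *Prm2*, *Prm3* and *Smcp*, and *Smcp* and *Hils1*. In WT SPG the order was the same at lower levels, from 145 ± 73.5 RPM per kb for *Tnp2* to 2.60 ± 2.32 for *H1fnt*, and all neighbours overlapped between libraries. Within a library, each neighbour pair of the order held in 3 of 3 WT SPG libraries except *Tnp1* and *Prm2* (2 of 3), and in 3 of 3 WT PreL libraries except *Tnp2* and *Prm1* (2 of 3). In WT LZ *Prm1* (508 ± 181) stood before *Tnp2* (426 ± 170), and their libraries overlapped, although the order held within both. *Tnp1*, *Prm2*, *Prm3*, *Smcp*, *Hils1* and *H1fnt* followed in the same order as in the earlier sorts.

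The share of each gene in the reads of the 8 does not depend on the scaling between libraries. In the pooled WT libraries *Tnp2* took 36.8% of these reads in SPG, 30.5% in PreL and 27.2% in LZ, and *Prm1* took 19.5%, 24.1% and 27.5%. *Hils1* took 2.78%, 1.24% and 5.06%. Within libraries, *Hils1* reads per *Tnp2* read were 0.0421 ± 0.00729 in WT PreL (n = 3) and 0.18 ± 0.0287 in WT LZ (n = 2). That ratio and 13 others were chosen after their values were seen, and none of the 14 passed an exact two-sided permutation test, which cannot go below 0.1 for 3 against 3 libraries or 0.2 for 2 against 3. The smallest adjusted exact p was 0.4. In SKO the makeup of the few reads was different, since *Tnp1* held 73 of 145 reads in PreL (50.3%, 95% exact interval 41.9 to 58.7) and 49 of 67 reads in LZ (73.1%, 60.9 to 83.2). In WT it held 15.7% in PreL (15.2 to 16.1) and 11.1% in LZ. The intervals treat reads as independent and cover counting error only.

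**Figure D4:**
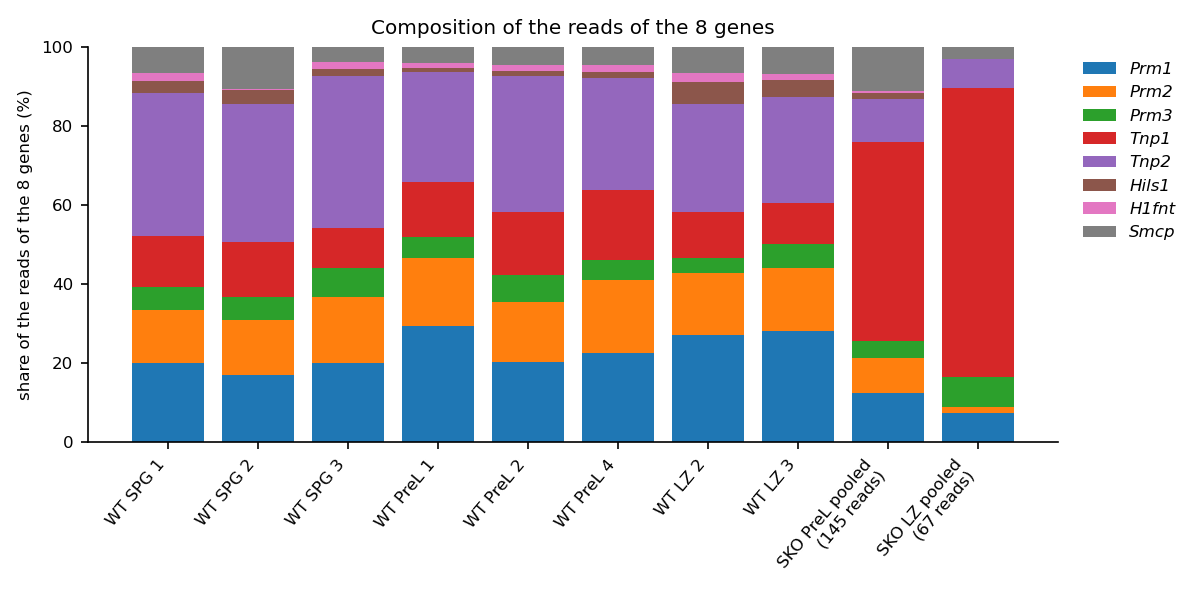
Percent of the reads of the 8 genes taken by each gene, in the 8 WT libraries and in the pooled SKO PreL (145 reads) and SKO LZ (67 reads) libraries. *Tnp2* and *Prm1* are the larger parts in WT, and *Tnp1* fills 50.3% and 73.1% of the SKO columns.

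The other spermatid transcripts give the setting of these values. The shares of all genes called lower in SKO were 2.06% in SPG, 5.83% in PreL and 25.8% in LZ. Genes of the lists below that were near 0 in SKO passed the filter through the WT libraries, so their counts are a description too. Of 20 further late spermatid transcripts, 8 of 17 tested were called lower in SKO SPG, 16 of 19 in PreL and 20 of 20 in LZ, and 0 were called higher. Their median log2 fold changes were -2.50, -4.14 and -5.85, or -2.50, -4.18 and -4.90 with genes at 0 in SKO at their bounds. Their summed level was 101 to 130 RPM in SKO SPG, 79.9 to 93.8 RPM in SKO PreL and 50.8 to 59.6 RPM in SKO LZ, of which *Odf2*, a tail fibre gene that somatic cells also express, made up 88.9 to 119 RPM, 62.9 to 78.2 RPM and 39.7 to 47.3 RPM. Without *Odf2*, a choice made after the data were seen, the other 19 summed to 11.6 to 12.1 RPM in SKO SPG, 12.2 to 20.1 RPM in SKO PreL and 11.01 to 12.6 RPM in SKO LZ, against 62.3 to 190 RPM, 276 to 427 RPM and 533 to 682 RPM in WT. Between 4 and 12 of these 19 were at 0 in SKO SPG libraries and between 9 and 11 in SKO LZ libraries. *Oaz3*, the testis antizyme, had a log2 fold change of -3.43 in SPG, -4.14 in PreL and -4.98 in LZ, and was called in all 3. *Odf2* stood at -0.33, -1.13 and -3.31. Of 18 round spermatid transcripts, 6 of 16 were called lower in SPG, 8 of 16 in PreL and 18 of 18 in LZ. Of 15 late spermatocyte transcripts, 6 of 14, 10 of 14 and 14 of 15 were called lower. The medians of the round spermatid and the late spermatocyte lists in LZ were -5.18 and -4.82, the former -4.84 with bounds.

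From PreL to LZ in WT, 8 of the 20 late spermatid transcripts were called higher and 0 lower, with a median of 0.39, beside 1 of the 8 genes and 18.8% of all genes tested. The 18 round spermatid transcripts summed to 57.3 to 143 RPM in WT PreL and to 651 and 1113 RPM in WT LZ, and 11 of 18 were called higher. The 15 late spermatocyte transcripts summed to 600 to 1520 RPM and to 4651 and 8004 RPM, and 13 of 15 were called higher. *Ldhc*, the lactate dehydrogenase of spermatocytes and spermatids, rose by a log2 fold change of 3.14, and *Spata16*, an acrosomal protein gene, by 3.83. The summed level of the 8 genes was 7.27 to 10.7 times that of the round spermatid list in WT PreL, and 1.69 and 0.567 times in WT LZ. WT LZ replicate 2 had the higher sum of the 8 genes (1103 against 631 RPM) and the lower sums of the round spermatid and late spermatocyte lists. Whether the lists differ from the 8 genes was not tested.

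**Figure D5:**
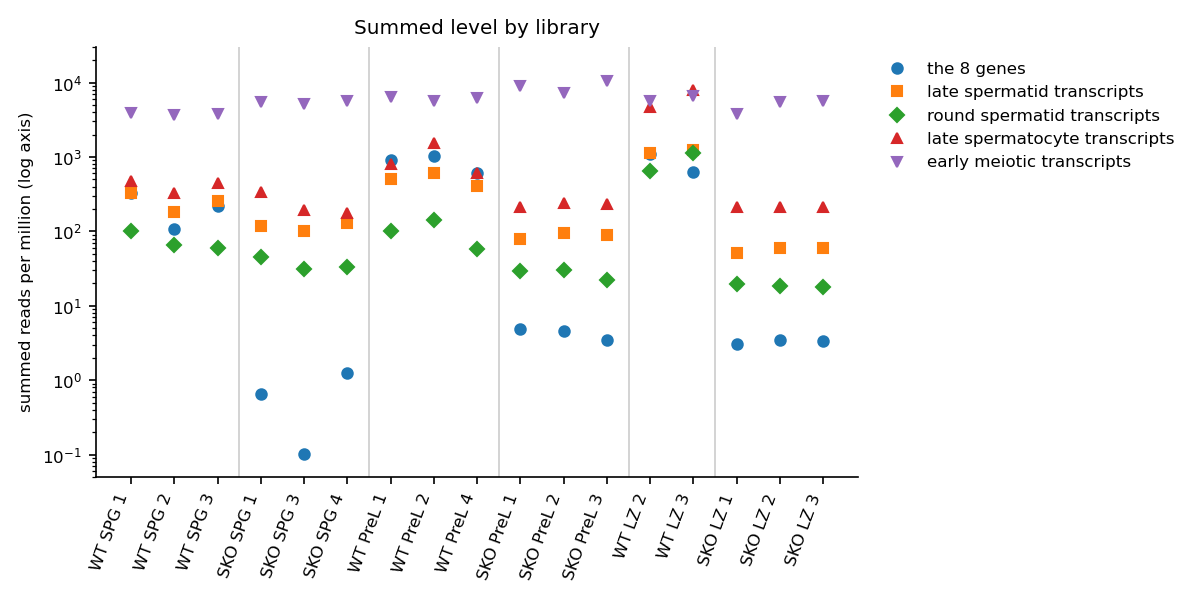
Summed level in RPM (log axis) of the 8 genes and of the lists of late spermatid, round spermatid, late spermatocyte and early meiotic transcripts in each of the 17 libraries. The 8 genes span 1103 RPM in a WT LZ library to 0.101 RPM in an SKO SPG library, while the early meiotic transcripts stay between 3681 and 10362 RPM.

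Among factors that act before or with the 8 genes, the regulators of their transcription numbered 9 in the list used here. That list also takes in the poly(A) polymerase gene *Papolb*. *Tbpl1* in it, and *Piwil1* and *Hspa2* in the lists that follow, are also late spermatocyte transcripts counted above, so their calls are not separate findings. Of these, 0 of 8 tested were called in SPG, 2 of 8 were called lower in PreL and 7 of 9 in LZ, and 0 were called higher. The shares of all genes called lower were 2.06%, 5.83% and 25.8% in these stages. The 2 in PreL were *Fhl5*, the CREM coactivator also called ACT (-4.35, adjusted p = 0.000215 by limma), and *Papolb*, a cytoplasmic poly(A) polymerase (-2.90, adjusted p = 0.00169). *Crem* itself had log2 fold changes of 0.69 in SPG (adjusted p = 0.129) and -0.03 in PreL (adjusted p = 0.914) and was lower in LZ (-2.33, adjusted p = 0.000613). *Crem* had 39.8 to 47.9 RPM in WT PreL and 41.5 to 52.7 RPM in SKO PreL. These are counts of the whole gene, and the part of *Crem* in the levels of the 8 genes was not tested. *Tbpl1*, a TBP-like factor, was called in LZ (-2.27) and not in SPG or PreL, as was *Kdm3a*, a histone demethylase (-1.26), while *Taf7l* was not called (0.91, adjusted p = 0.0104, under the fold threshold). From PreL to LZ in WT, 8 of the 9 were called higher and *Taf7l* lower.

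Of 7 genes for RNA-binding proteins that store or translate these mRNAs, 1 was called lower in SPG, 3 in PreL and 5 in LZ, and 0 higher. The shares of all genes called lower were 2.06%, 5.83% and 25.8%. *Piwil1*, the PIWI protein MIWI, was called in all 3 stages (-1.90, -3.85 and -4.82). *Ybx2*, the germ-cell Y-box protein MSY2, was called in PreL (-1.41) and LZ (-4.47), and *Pabpc2* in PreL (-5.18) and LZ (-10.49). *Ybx3*, listed under its older symbol *Csda*, was called in LZ (-3.31). In SPG *Ybx3* stood at 0.43, *Ptbp2* at 0.38 and *Elavl1* at -0.25, and none of these was called there.

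Of 10 genes for histone removal and exchange, 0 were called in SPG, 1 was called lower in PreL (*Hspa2*, a testis chaperone, -1.12), and 5 were called lower and 2 higher in LZ, where 25.8% of all genes were called lower and 13.4% higher. Those higher in LZ were *Camk4* (1.74) and *Sirt1* (1.08). *Psme4*, the proteasome activator PA200, was called lower in LZ (-1.28), as were *Hspa2* (-2.53) and *Hspa4l* (-1.60).

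Among the histone variant genes of the list, the linker histone gene *Hist1h1t* did not pass the filter. Of all genes, 2.06%, 5.83% and 25.8% were called lower in SPG, PreL and LZ. Of the 7 core histone genes tested in each stage, the same 3 were called lower in each. They were *1700024P04Rik*, also known as *H2bl1* (-2.62, -5.46 and -7.01 in SPG, PreL and LZ), *H2afb1* (-2.49, -5.15 and -6.09), and *4930557A04Rik*, also known as *H2al3* (-1.97, -3.24 and -6.03). *1700024P04Rik* had 29 to 82 reads in WT SPG, 152 to 343 in WT PreL, 269 to 527 in WT LZ and 0 in all SKO libraries. *Hist1h2ba*, the testis H2B that is made earlier in meiosis, was not called in any stage (1.08, -0.17 and -0.77), with 171 to 219 reads in WT PreL and 153 to 218 reads in SKO PreL.

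Of all other genes, those with the profile most like the mean of the 8 across the 17 libraries were ranked by the root-mean-square difference of centred log2(RPM + 1). The closest of 13530 genes was *Akap4*, an anchoring protein of the sperm tail (0.266), followed by *Gstt4* (0.290), *Gsg1* (0.302), *Ms4a5* (0.303), *Hmgb4* (0.355), *Spz1* (0.377), *1700031M16Rik* (0.422), *1700019M22Rik* (0.487), *1700027A15Rik* (0.489) and *1700016P04Rik* (0.521). Of these, *1700027A15Rik* shares exons with *Tnp1*. The median over all genes was 2.62. The 8 genes themselves lay between 0.323 (*Prm3*) and 1.02 (*H1fnt*) from their own mean. Of the 10, 7 were also among the closest 10 with a pseudocount of 0.1.

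Transcripts of somatic cells moved with the genotype as well. Of all genes, 3.95%, 5.32% and 13.4% were called higher in SPG, PreL and LZ, and 2.06%, 5.83% and 25.8% lower. Some somatic genes passed the filter only through the SKO libraries, such as *Lhcgr* in SPG with 0 reads in WT. Their counts called higher are therefore a description. The 8 Leydig cell transcripts summed to 5.61 to 15.5 RPM in WT and 63.2 to 226 RPM in SKO SPG (5 of 7 called higher), 6.25 to 17.7 and 40.8 to 462 RPM in PreL (6 of 7), and 20.9 to 57.6 and 81.9 to 234 RPM in LZ (6 of 8). Between 3 and 5 of the 8 were at 0 in WT SPG libraries, and none was at 0 in an SKO library. The 7 macrophage transcripts summed to 7.68 to 16.3 and 59.1 to 134 RPM in SPG (4 of 7 called higher), 12.4 to 23.0 and 16.6 to 68.6 RPM in PreL (1 of 7), and 2.03 to 3.73 and 8.77 to 31.9 RPM in LZ (4 of 4). The 9 Sertoli cell transcripts summed to 20.0 to 33.7 and 42.9 to 91.1 RPM in SPG (1 of 5 called higher), 63.0 to 68.7 and 63.3 to 913 RPM in PreL (5 of 8), and 257 to 1331 and 415 to 574 RPM in LZ (0 of 8). Of 6 peritubular myoid transcripts, 2 of 4 were called higher in SPG and 1 of 3 lower in PreL and in LZ, and of 5 endothelial transcripts none of the 1 or 2 tested was called. In SKO PreL replicate 3 the Leydig and Sertoli sums were the lowest of the group (40.8 and 63.3 RPM), and the 8 genes held 39 reads there. The part of somatic RNA in the differences of the 8 genes was not tested. In the same comparisons 0 of 12 early meiotic transcripts were called lower in SPG and in PreL and 1 in LZ. Called higher were 0 in SPG, 1 in PreL (*Sycp3*, 1.13, adjusted p = 0.00536 by limma) and 0 in LZ. The medians were 0.47, 0.32 and -0.30. In SPG *Stra8*, *Sycp1*, *Sycp2*, *Sycp3*, *Dmc1*, *Prdm9*, *Hormad1* and *Smc1b* were higher at adjusted p from 0.00067 to 0.0412 by limma. They missed only the fold threshold, with log2 fold changes from 0.36 to 0.90. *Spo11*, *Rec8* and *Rad21l* stood below 0 there (adjusted p from 0.206 to 0.939 by limma). The 12 genes summed to 3681 to 3915 RPM in WT SPG and 5154 to 5612 RPM in SKO SPG. Of the 13 spermatogonial transcripts, 0, 1 and 2 were called lower and 1, 2 and 2 higher.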

How the data were processed

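RNA-seq was analysed in 17 libraries of sorted WT and *Nat10*-SKO germ cells. Per the study's methods the authors trimmed the reads, mapped them to mm10, assigned uniquely mapped reads to genes with HTSeq 0.11.2 and calibrated the counts by the ERCC spike-in and by how much cell material went in. The submitters' processing notes also name TopHat2 2.1.1, Cufflinks 2.2.1, DESeq2 and the build mm9. The deposited signal values are these ERCC-calibrated counts for 23282 genes. All values of each library were whole multiples of its smallest value (100% within 0.01), which gave the recovered reads.

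In each comparison the values were rescaled by size factors (median of ratios), genes averaging under 10 recovered reads were left out, and log2(value + 10) was tested with limma 3.58.1 (mean-variance trend, R 4.3.3) with Benjamini-Hochberg adjustment over all genes tested. Pairwise calls needed an adjusted p under 0.05 with a log2 fold change beyond 1 in either direction, and interaction calls the adjusted p alone. The added 10 shrinks the ratio of low values, but for genes at 0 in SKO LZ the fitted size can exceed the bound from the floor of 3 reads. RPM is per 1000000 recovered reads. The libraries carry no molecular identifiers and PCR copies of a molecule are not independent, so intervals (95%, exact) and the floor of 3 reads per library cover counting error only.

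Alternatives were unscaled ERCC-calibrated values, TMM scaling, pseudocounts of 1 and 50, the filter left out or set at 50 mean reads, edgeR 4.0.16 and DESeq2 1.42.0 on recovered reads, no fold threshold, 1 fit of all libraries, a replicate block, and each replicate left out. The 8 genes and the lists were chosen with earlier results of these data known. The rule for named genes took all 8 genes, *Nat10*, the 10 genes of most alike profile and the 3 tested genes of each list with the most reads, of which those that bear on the 8 genes are printed. *Crem*, *Fhl5*, *Papolb*, *Piwil1*, *Ybx2*, *Pabpc2*, *Camk4*, *Sirt1* and, among histone variants, genes called lower were named after their values were seen. So were *Lhcgr* and the early meiotic genes printed for SPG, other than *Sycp1*, *Sycp3* and *Smc1b*. *Nutm1*, *H2afb2*, *H2afb3*, *H2al1* and *H2al2* matched no symbol of the table. Positions came from GENCODE for GRCm38 and promoters from RefSeq for GRCm38.p6. Same-numbered libraries of the groups compared had deviations from the group means that correlated between -0.188 and 0.126, and no label says that a number marks a shared animal, so the main test has no replicate block.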

Additional observations from a re-analysis of the deposited data

Results flagged for a closer look

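The interaction term of genotype and stage passed its threshold for *Hils1* between LZ and PreL, at -2.05 on the log2(value + 10) scale (adjusted p = 0.0189 by limma). *Hils1* had 101, 144 and 94 reads in WT PreL and 837 and 370 in WT LZ, and at most 2 reads in the SKO libraries of both stages, so the term restates the difference between the WT stages and is not evidence of a genotype effect that changes with stage. It was not called without WT LZ replicate 2 (-1.66, adjusted p = 0.0959 by limma), with a pseudocount of 1 (-2.69, adjusted p = 0.0918), by edgeR (adjusted p = 0.175) or by DESeq2 (adjusted p = 0.243). No group held 4 or more libraries, so single libraries were not tested as far from the others.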

How the results depend on the processing

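The 8 genes were called lower in SKO under all 17 alternatives in PreL and all 16 in LZ, and 6 to 8 of them in SPG over 17 alternatives (7 to 8 with each library left out). In SPG *Hils1* was tested in 16 of these and called in each. *H1fnt* was tested in 15 and called in 5, and the other genes were called in all 17. Over all tests of single genes, 1020 values kept direction and side of the threshold, 15 lost a call, 21 gained one and 29 changed sign. The number higher in WT PreL than SPG was 3 with no filter on low values and 3 to 7 with each replicate left out. The number higher in WT LZ than PreL was 8 without rescaling and 0 to 1 with each replicate left out. For the interaction of PreL and SPG, 4 genes were more negative without rescaling and 2 with a pseudocount of 50. For that of LZ and PreL, 4 were more negative without rescaling, 0 with a pseudocount of 1, 0 with edgeR and 0 with DESeq2, and 0 to 1 with each replicate left out.

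Signs changed in these cases. In WT LZ against PreL without rescaling, the values were 1.57 for *Prm2*, 1.47 for *Prm3*, 1.15 for *Tnp1* and 1.53 for *Tnp2*, and with each replicate left out *Prm1* ran from -0.21 to 0.25 and *H1fnt* from -0.49 to 0.65. In the interaction of PreL and SPG they were 0.055 for *Prm1*, 1.60 for *Tnp1*, 0.29 for *Tnp2* and 1.47 for *Smcp* with a pseudocount of 1. With edgeR they were 0.57 for *Prm1*, 0.24 for *Prm2*, 0.52 for *Tnp1*, 1.71 for *Hils1* and 3.88 for *Smcp*, and with DESeq2 0.75, 0.41, 0.55, 0.89 and 3.29. In the interaction of LZ and PreL, *Prm3* was -0.63 without rescaling and *Tnp2* 0.10 with a pseudocount of 50, and with each replicate left out *Tnp2* ran from -0.39 to 0.29, *Prm2* from -0.74 to 0.024 and *H1fnt* from -0.87 to 0.25. With a handful of SKO reads the added pseudocount sets the size of these terms, and what else moves them was not tested.

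With a replicate block, 8 genes were called lower in SPG, 8 in PreL and 8 in LZ, 7 were higher in WT PreL than SPG, and the interactions called 0 and 1. The libraries share only a number. Those numbers match only in part between the groups compared, so the blocked pairwise fits had few residual degrees of freedom. The block could not be fitted for WT LZ against PreL, which leaves no residual degrees of freedom. Among all genes, those called lower in SPG numbered 265, against 578 without rescaling and 155 where the filter was 50 mean reads and 622 with no fold threshold. Over all alternatives those called lower in SKO ranged from 118 to 622 in SPG, 390 to 1318 in PreL and 2392 to 4273 in LZ, those higher from 305 to 799, 180 to 3459 and 1367 to 2716, those higher in WT PreL than SPG from 78 to 540 (27 to 382 lower) and those higher in WT LZ than PreL from 797 to 10992 (15 to 1959 lower). The interaction calls ranged from 1 to 190 more negative and 4 to 5938 more positive for PreL and SPG, and from 1952 to 6575 and 749 to 2279 for LZ and PreL.

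At 5812380 to 13820953 reads per library a count of 0 allows a level of up to 0.217 to 0.516 RPM, so lower SKO levels were not detectable.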
